A study of Mus musculus with 46 samples.

Results

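The zinc finger protein genes described here are the 87 protein-coding genes of mouse chromosome 7 whose symbols begin with Zfp in the GENCODE vM1 annotation of the mm9 genome, out of 22380 protein-coding gene entries in all. They were chosen by name and position, and no measured value was used to include or leave out a gene. Earlier results of these data were known when the genes and windows were chosen. In these 87 genes the positions of the histone variant H3.3, of trimethylated lysine 4 of histone H3 (H3K4me3) and of trimethylated lysine 36 (H3K36me3) were compared between the promoter and the 3' end, in cells changing from fibroblasts to pluripotent cells or towards blood cells. For comparison, 287 Zfp genes on the other chromosomes and the 1985 other protein-coding genes of chromosome 7 were read in the same way, and 240 of the latter have symbols that begin with Olfr, the olfactory receptors.

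Most Zfp genes encode proteins with rows of C2H2 zinc fingers, small folds that hold a zinc ion and together read a DNA sequence. Many also carry a KRAB box, which recruits the corepressor Trim28 and, through it, the methyltransferase Setdb1 and heterochromatin proteins, and such proteins are known for silencing retroelements and imprinted regions in pluripotent cells. The fingers are usually all encoded in one long last exon, and the genes sit in clusters of near copies, so short reads from them can be hard to place. H3.3 is the form of histone H3 deposited outside replication, by Hira at active genes and by Atrx and Daxx at silent repeats and telomeres. H3K4me3 marks the promoters of active or poised genes, and H3K36me3 covers the bodies of transcribed genes and is also known over the 3' exons of zinc finger genes.

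The study followed mouse embryonic fibroblasts (MEFs) that carry an Oct4-GFP reporter through reprogramming in feeder-free medium, started with retroviruses for Oct4, Sox2, Klf4 and c-Myc. Its 46 samples comprised 16 inputs and 30 immunoprecipitated libraries, each with its own peak list, and every group was a single library. H3.3 was mapped in unsorted cells on day 0 (D0) and day 3 (D3), in Thy-1 negative and positive cells on day 6 and day 9 (D6T-, D6T+, D9T-, D9T+), in SSEA-1 positive and negative cells on day 12 and day 16 (D12S+, D12S-, D16S+, D16S-), in fully reprogrammed iPSCs and in the embryonic stem cell line ESD3. Loss of Thy-1 and display of SSEA-1 mark the cells on the route to pluripotency. H3K4me3 and H3K36me3 were mapped in D0, D3, D6T-, D9T-, D12S+, D16S+ and iPSCs. A second H3.3 series followed MEFs taken towards blood cells by the factor set labelled SLBR, as starting MEFs (MEF), cells on day 4 (D4) and cells sorted as positive or negative for the blood progenitor receptor cKit (cKit+, cKit-). With 1 library a group, a difference between stages has no replicate check, and the intervals given below cover counting error over genes only.

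The H3.3 libraries held 18.7 to 91.8 M tags (M, 1000000) and 25637 to 108179 peaks, with 1.65 to 37.2% of tags in peaks, lowest in cKit+ and highest in D4. The H3K4me3 libraries had 3.71 to 34.8% of tags in peaks and the H3K36me3 libraries 1.07 to 42.4%, the latter with 12322 to 57288 peaks. H3.3 peaks lay over 6 of 6 fibroblast marker genes in D0 and 1 of 6 in iPSCs, and over 6 of 6 pluripotency marker genes in iPSCs and ESD3. In D0, 3 of 6 pluripotency markers had an H3.3 peak, with a summed score of 57.9 against 962 in iPSCs. In the cKit+ library, peaks lay over 2 of the 5 blood markers that the annotation lists under the symbols used, with a summed score of 13.6, and over 3 of 6 fibroblast markers, with a summed score of 107. A score is the number of tags in a peak after scaling each library to 10 M tags, with neither input nor peak length taken into account.

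The 87 genes ran from 0.941 to 451.079 kb with a median of 12.078 kb, 50 on the plus strand and 37 on the minus strand. Joining starts no more than 500 kb apart gave 10 clusters with 75 of the genes and left 12 single. The largest clusters held 14 genes each, from Zfp180 to Zfp526 over 1.15 Mb (chr7:24866943-26012526) and from Zfp84 to Zfp146 over 0.401 Mb (chr7:30553571-30954746). Trim28 itself (chr7:13609501-13616384) lies just beyond the 7-gene cluster that ends with Zfp446 (chr7:13000502-13569689). By patterns searched in the translated coding sequences, the genes encoded 0 to 33 fingers with a median of 11, and 41 of 87 matched a KRAB A pattern, which misses divergent boxes. A gene of the 46 without a match is therefore not shown to lack the box.

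The repeat that defines the family is visible in the last exons. In 6 genes whose chromatin is described below, a 168-base stretch of the last exon, the length of a pair of finger units, is shown from the first base of a linker, 5' to 3' on the coding strand of mm9. Capitals mark the 14 letters that match the coding form of the H/C link, the conserved linker that joins neighbouring fingers, with any base allowed at the third position of each codon.
Zfp568 (chr7:30807974-30808141, plus strand): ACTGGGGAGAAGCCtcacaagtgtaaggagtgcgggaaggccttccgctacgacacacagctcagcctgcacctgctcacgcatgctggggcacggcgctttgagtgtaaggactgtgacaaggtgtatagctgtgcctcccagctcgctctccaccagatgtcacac
Zfp84 (chr7:30562389-30562556, plus strand): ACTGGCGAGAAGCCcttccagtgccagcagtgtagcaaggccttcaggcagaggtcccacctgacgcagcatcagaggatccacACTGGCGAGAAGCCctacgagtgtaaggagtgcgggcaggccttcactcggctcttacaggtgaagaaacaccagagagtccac
Zfp420 (chr7:30659529-30659696, plus strand): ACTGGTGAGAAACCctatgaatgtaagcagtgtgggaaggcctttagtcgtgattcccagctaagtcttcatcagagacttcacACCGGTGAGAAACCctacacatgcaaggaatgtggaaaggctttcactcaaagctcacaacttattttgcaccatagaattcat
Zfp606 (chr7:13078746-13078913, plus strand): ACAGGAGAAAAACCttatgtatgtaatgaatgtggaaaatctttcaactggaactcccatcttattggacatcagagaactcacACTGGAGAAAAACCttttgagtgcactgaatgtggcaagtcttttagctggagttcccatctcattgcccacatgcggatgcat
Zfp141 (chr7:49731037-49731204, minus strand): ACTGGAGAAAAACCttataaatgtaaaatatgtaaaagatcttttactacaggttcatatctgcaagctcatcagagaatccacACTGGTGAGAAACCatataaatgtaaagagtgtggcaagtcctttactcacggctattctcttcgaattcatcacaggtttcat
Zfp936 (chr7:50445246-50445413, plus strand): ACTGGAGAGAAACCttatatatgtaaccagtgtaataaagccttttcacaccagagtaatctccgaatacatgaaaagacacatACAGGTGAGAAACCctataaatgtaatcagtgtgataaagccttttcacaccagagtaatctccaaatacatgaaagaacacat

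The Zfp568 stretch shared 57.1% of its positions with Zfp84, 56.5% with Zfp420, 57.7% with Zfp606, 51.2% with Zfp936 and 48.2% with Zfp141. The capitals recur at the same distance in 5 of the 6 stretches, and Zfp568 has 1 match of the motif in its stretch. Of 287 neighbouring pairs of linkers within the coding last exons, 169 (58.9%) were exactly 84 bases apart and 271 (94.4%) were a multiple of 84 bases apart. Over 55 genes with such a stretch, the median identity of 1485 pairs was 58.9% and the highest was 98.2%, between Zfp111 and Zfp114. The linker motif, searched on both strands, occurred in the last exon of 58 of 87 genes (66.7%), of 61.7% of Zfp genes elsewhere, of 1.46% of other chromosome 7 genes and of 1.99% of all genes.

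The starts of these genes vary as widely in CpG content. The 250 bases before the annotated start held 0 to 35 CpG dinucleotides with a median of 10, and 5 of them are shown, 5' to 3' on the coding strand of mm9 with each CpG in capitals, because the genes differ in the marks on their promoters.
Zfp568 (chr7:30768724-30768973, plus strand): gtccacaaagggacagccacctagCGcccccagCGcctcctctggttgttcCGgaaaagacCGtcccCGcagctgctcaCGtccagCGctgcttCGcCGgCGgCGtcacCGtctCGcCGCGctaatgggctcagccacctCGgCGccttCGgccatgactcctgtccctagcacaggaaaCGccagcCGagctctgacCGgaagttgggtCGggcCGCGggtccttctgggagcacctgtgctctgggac
Zfp36 (chr7:29164275-29164524, minus strand): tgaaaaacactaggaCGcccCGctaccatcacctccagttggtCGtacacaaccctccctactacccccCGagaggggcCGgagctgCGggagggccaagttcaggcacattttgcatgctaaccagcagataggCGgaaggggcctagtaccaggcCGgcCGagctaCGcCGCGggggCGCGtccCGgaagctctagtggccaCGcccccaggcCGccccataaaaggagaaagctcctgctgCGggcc
Zfp296 (chr7:20162386-20162635, plus strand): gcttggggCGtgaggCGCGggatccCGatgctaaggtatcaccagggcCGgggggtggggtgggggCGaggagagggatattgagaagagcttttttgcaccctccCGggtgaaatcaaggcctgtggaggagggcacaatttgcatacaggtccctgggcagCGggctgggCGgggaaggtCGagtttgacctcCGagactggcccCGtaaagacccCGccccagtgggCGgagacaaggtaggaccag
Zfp780b (chr7:28759805-28760054, minus strand): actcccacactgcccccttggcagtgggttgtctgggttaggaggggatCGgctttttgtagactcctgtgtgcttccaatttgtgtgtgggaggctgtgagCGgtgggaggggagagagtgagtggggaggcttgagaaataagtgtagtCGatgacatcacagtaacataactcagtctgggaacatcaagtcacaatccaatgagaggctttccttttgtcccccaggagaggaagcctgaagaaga
Zfp936 (chr7:50442290-50442539, plus strand): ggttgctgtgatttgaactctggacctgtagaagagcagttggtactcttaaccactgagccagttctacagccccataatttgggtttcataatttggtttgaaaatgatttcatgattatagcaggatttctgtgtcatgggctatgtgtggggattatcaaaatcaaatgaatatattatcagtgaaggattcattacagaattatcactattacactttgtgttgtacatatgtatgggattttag

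Zfp568 had 24 CpG, Zfp36 18, Zfp296 14, Zfp780b 3 and Zfp936 none in this window. Over the 1 kb around the start, the median ratio of observed to expected CpG was 0.628 in the 87 genes, against 0.549 in all genes and 0.309 in other chromosome 7 genes.

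H3.3 was found at most of these genes in most libraries. A gene was counted as bound where a peak overlapped it by at least 1 base between 1 kb before its start and 1 kb after its end, here the gene region. The authors kept H3.3 peaks with at least 2 times the input and peaks of the other marks with at least 4 times. In D0, 69.0% of the 87 genes were bound (Wilson 95% interval 58.6 to 77.7%) against 61.8% of all genes. In iPSCs 86.2% were bound (77.4 to 91.9%) against 61.1% of all genes. The share of the 87 genes was above that of all genes in 14 of 16 libraries, the exceptions being cKit+ (28.7% against 33.2%) and cKit- (19.5% against 31.8%). Zfp genes elsewhere were also above all genes in 14 of 16 libraries (not in MEF or cKit-), whereas the other genes of chromosome 7 were below all genes in 16 of 16.

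The share did not move steadily along the time course. Over the 12 libraries of the reprogramming series, ESD3 included, it ranged from 56.3% in D16S+ to 86.2% in iPSCs, with a median of 69.5%. The Thy-1 negative cells of D6T- had 74.7% and those of D9T- 70.1%, where all genes had 60.6% and 58.3%. D3 had 64.4% (57.3% of all genes), D12S+ 70.1% (50.2%) and D16S+ 56.3% (43.3%). The share was 66.7% in ESD3 (52.1%), so that the 2 pluripotent libraries stood on either side of D0. The same 27 genes (31.0%, against 27.9% of all genes) were bound in all 12 of these libraries and 8 genes (9.20%, against 23% of all genes) in none. The 8 were Zfp772, Zfp551, Zfp114, Zfp109, Zfp108, Zfp780b, Zfp850 and Zfp939.

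**Figure D1:**
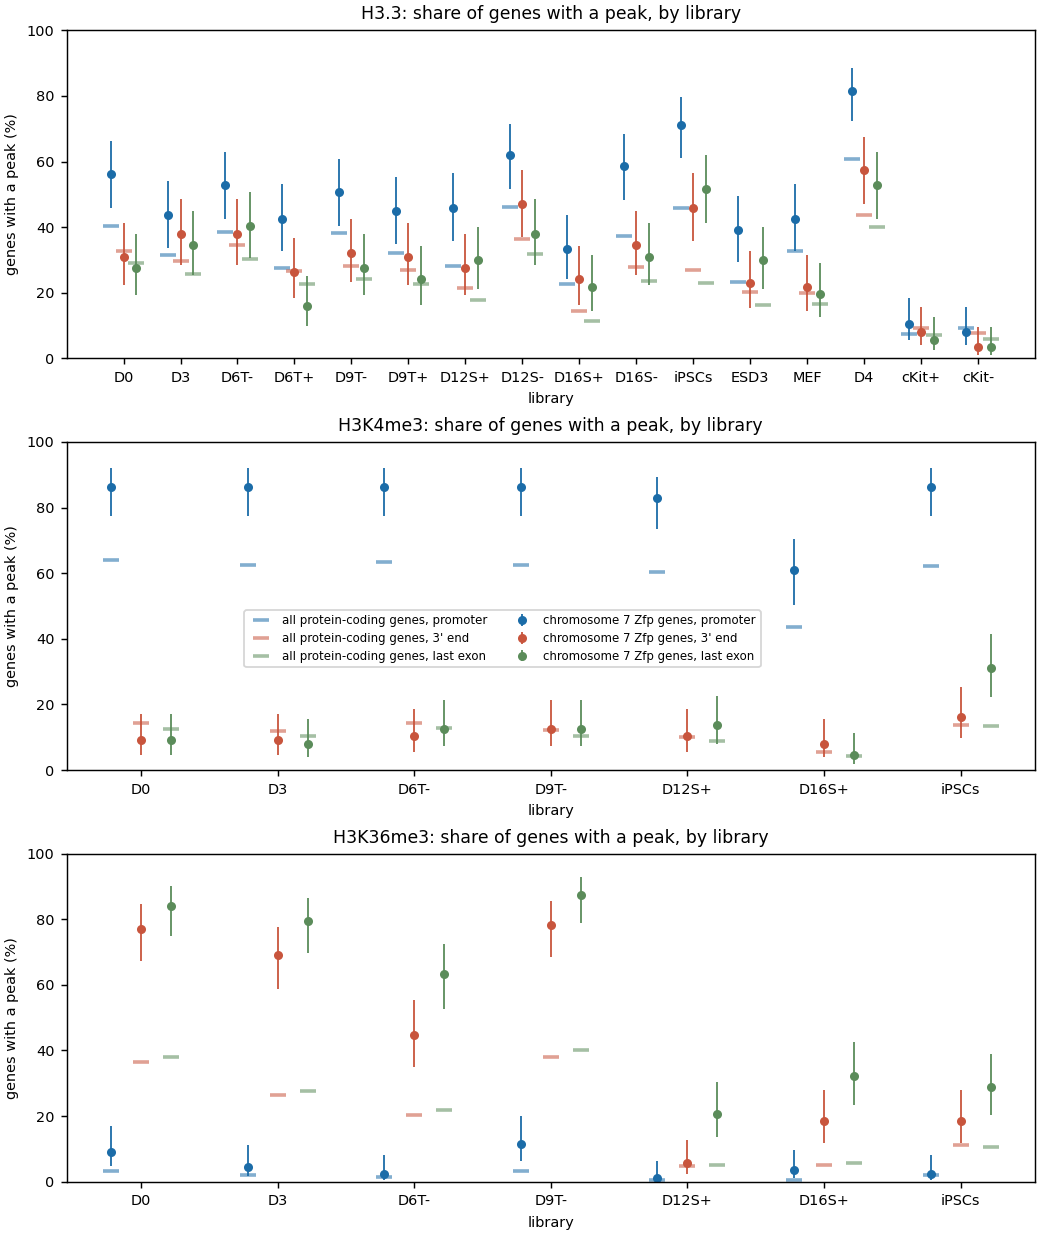
Percent of genes with a peak (y axis) in each library (x axis) at the promoter, 3' end and last exon, with 1 panel a mark. Points with Wilson 95% intervals are the 87 chromosome 7 Zfp genes and dashes all protein-coding genes, and the points of the 87 genes are higher at the promoter than at the 3' end in each H3.3 and H3K4me3 library and lower there in each H3K36me3 library.

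Within the genes, H3.3 lay more often at the promoter than at the 3' end. Both windows were 2 kb wide, centred on the annotated start or end, so gene length does not set the comparison. In D0, 56.3% of the 87 genes had a promoter peak against 40.4% of all genes, and 31.0% had a 3' end peak against 32.8% of all genes. In iPSCs the shares were 71.3% at the promoter (45.9% of all genes) and 46.0% at the 3' end (26.8%). The promoter was ahead in 16 of 16 H3.3 libraries, from 81.6% against 57.5% in D4 (60.8 and 43.6% of all genes) to 8.05% against 3.45% in cKit- (9.36 and 7.67% of all genes). When peaks were required to hold 4 times the input, 11 of 16 libraries kept this order, and the median difference of 16.1 percentage points became 2.87.

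A peak at one end rarely ran into the other. In D0, 30 genes had a promoter peak alone, 8 a 3' end peak alone, 19 both, 3 a peak in between only and 27 no peak, and in 2 of the 19 a single peak covered both windows. In iPSCs the numbers were 27, 5, 35, 8 and 12, with a single peak over both windows in 5 of the 35. Of all 22380 genes, the numbers were 3890, 2208, 5142, 2597 and 8543 in D0, with a single peak over both windows in 836 of the 5142. They were 5408, 1148, 4855, 2272 and 8697 in iPSCs, with a single peak in 752 of the 4855. The 8 genes with a 3' end peak in all 12 reprogramming libraries (9.20%, against 6.11% of all genes) were Zfp524, Zfp296, Zfp428, Zfp36, Zfp568, Zfp710, Zfp553 and Zfp771. Zfp36, Zfp524 and Zfp296 are 2.47, 2.99 and 3.37 kb long, so their windows lie close together. The 3' end window of Zfp524 also overlaps the promoter window of Zfp865. A promoter peak in all 12 was found at 10 genes (11.5%, against 6.01%).

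**Figure D2:**
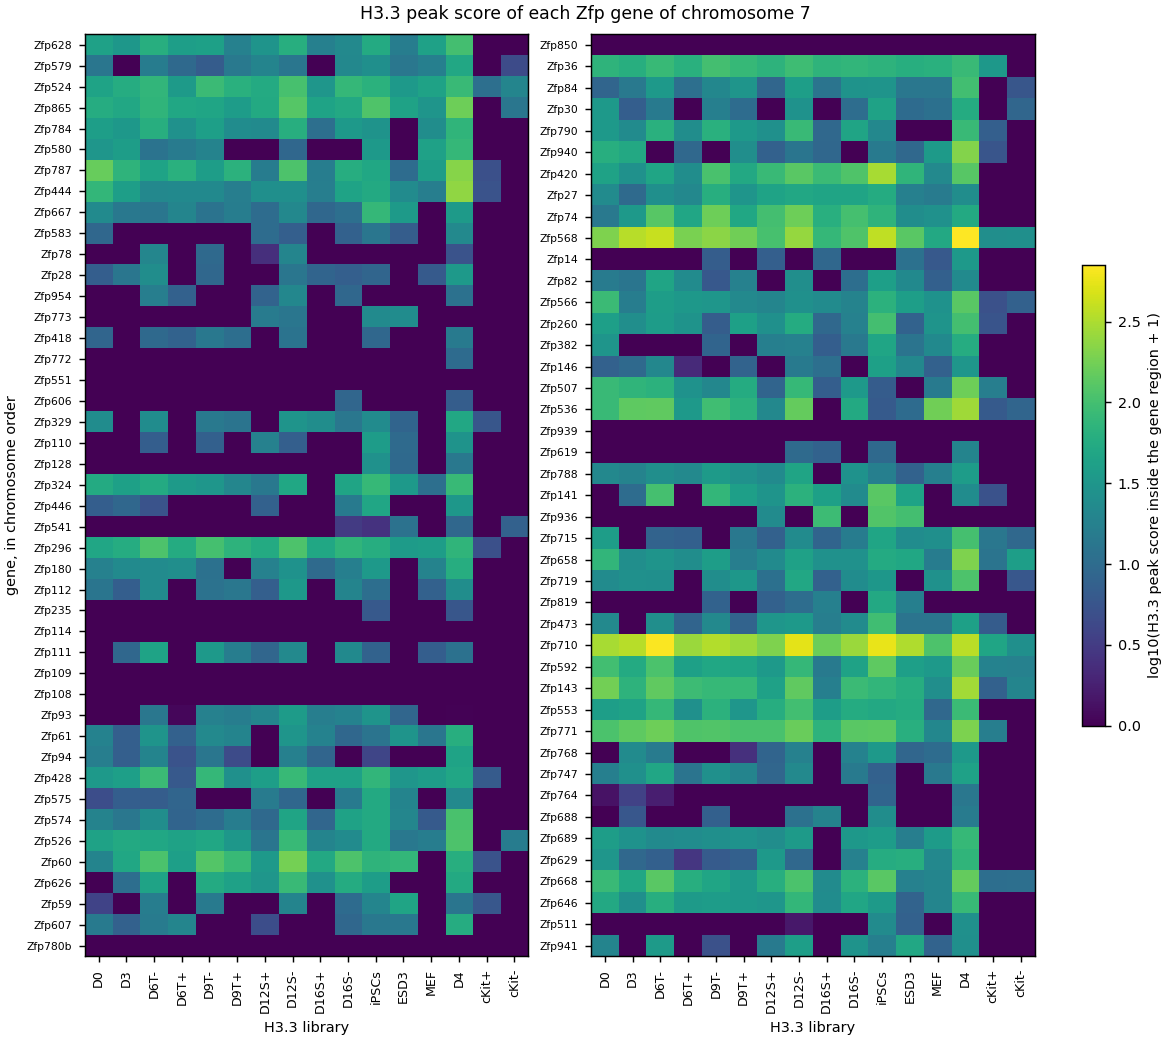
Log10 of the H3.3 score inside the gene region plus 1 (color scale), for each of the 87 genes in chromosome order (y axis) and the 16 H3.3 libraries (x axis). Zfp568 and Zfp710 are filled in all 16 libraries, and the columns of cKit+ and cKit- are mostly empty.

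The individual genes show how unequal the members were. The score of a peak was shared out by the part of it that lay inside the gene region, so a value is a sum of normalized tags that also depends on the length of the gene. For Zfp568, a KRAB repressor of a placental Igf2 transcript, the summed score was 196 in D0, 347 in D3, 405 in D6T-, 190 in D6T+, 224 in D9T-, 169 in D9T+, 105 in D12S+, 250 in D12S-, 77.9 in D16S+ and 116 in D16S-, with 375 in iPSCs and 133 in ESD3. In the other series it was 51.9 in MEF, 710 in D4, 24.9 in cKit+ and 25.0 in cKit-. Zfp568 was thus bound in all 16 libraries, with D4 the highest and both cKit libraries the lowest. Zfp710 gave 299 in D0, 350 in D3, 690 in D6T-, 267 in D6T+, 329 in D9T-, 273 in D9T+, 201 in D12S+, 549 in D12S-, 160 in D16S+, 263 in D16S-, 567 in iPSCs, 327 in ESD3, 114 in MEF, 356 in D4, 46.7 in cKit+ and 25.2 in cKit-. It had the highest summed score of the 87 genes in D0. D6T- was its highest library and iPSCs the next.

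Zfp36, which encodes the mRNA decay factor tristetraprolin and has CCCH rather than C2H2 fingers, gave 71.0 in D0, 59.7 in D3, 83.0 in D6T-, 62.9 in D6T+, 98.4 in D9T-, 80.2 in D9T+, 69.0 in D12S+, 91.3 in D12S-, 70.4 in D16S+ and 73.5 in D16S-, with 69.3 in iPSCs and 59.6 in ESD3. The score stayed within this narrow range through reprogramming, and it was 63.2 in MEF, 85.1 in D4, 32.04 in cKit+ and 0 in cKit-. Zfp296, a zinc finger factor of pluripotent cells that aids iPSC formation, was bound in all 12 reprogramming libraries, from 35.8 in ESD3 and 48.2 in D0 to 113 in D6T-. At its promoter, however, no peak was called in D0, whereas the score there was 42.1 in D6T-, 38.3 in D9T-, 21.0 in iPSCs and 6.72 in ESD3. A score of 0 says that no peak was called and not that H3.3 was absent.

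The comparison of D0 with iPSCs asks which of these genes carried H3.3 only at one end of reprogramming. A peak in the gene region was found in both at 60 genes, in iPSCs and not D0 at 15 (17.2%, against 8.84% of all genes) and in D0 and not iPSCs at 0 (9.53% of all genes). Zfp genes elsewhere gave 16.4% in iPSCs and not D0 and 8.01% in D0 and not iPSCs. The 15 were Zfp773, Zfp110, Zfp128, Zfp541, Zfp235, Zfp111, Zfp93, Zfp626, Zfp619, Zfp141, Zfp936, Zfp819, Zfp768, Zfp688 and Zfp511. The summed score was higher in iPSCs at 54 genes (62.1%, against 27.9% of all genes), lower at 21 (24.1%, against 42.7%) and 0 in both at 12 (13.8%, against 29.3%). In Zfp genes elsewhere it was higher at 50.9%, lower at 36.2% and 0 in both at 12.9%. The iPSC library had 41.2 M tags against 26.96 M in D0, and the peaks over the 87 genes had a median fold over input of 3.20 in iPSCs against 4.34 in D0.

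This difference depended on the peak threshold and on the pluripotent library used. With peaks of at least 4 times input, the share in iPSCs was 27.6 percentage points below that in D0, and it was 23.7 points below it over all genes. With ESD3 in place of iPSCs it was 2.30 points below D0. ESD3 had 21.6 M tags and a median fold of 4.11, and 57 genes were bound in both pluripotent libraries, 18 in iPSCs alone (13% of all genes) and 1 in ESD3 alone (3.97%). The limit on tags counted per base was 2 in the iPSC library and 1 in D0 and ESD3. The part of depth, of this limit and of peak strength in these numbers was not tested.

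Among single genes, Zfp420 stood out with 43.3 in D0, 85.5 in D12S+, 85.8 in D16S+ and, among the pluripotent libraries, 299 in iPSCs and 72.2 in ESD3. The annotated entry of Zfp420 (chr7:30644998-30700678) contains the whole of Zfp27 (chr7:30678352-30691591), so peaks over Zfp27 count in these scores. Zfp420 encodes a KRAB protein reported to restrain p53, although its entry did not match the KRAB A pattern and is counted among the 46 without it. Its iPSC score was well above that of the other 15 libraries, the next being 131 in D12S- and 129 in D4. Zfp141 had no peak in D0, D6T+, MEF or cKit-, and its score went from 9.29 in D3 to 101 in D6T-, with 76.7 in D9T-, 39.7 in D9T+, 131 in iPSCs and 43.7 in ESD3. On days 6 and 9 its score was thus higher in the Thy-1 negative than in the Thy-1 positive cells. Zfp473, which takes part in histone pre-mRNA processing, gave 21.2 in D0, 94.1 in iPSCs and 11.6 in ESD3. Zfp819 gave 0 in D0, 52.1 in iPSCs and 16.0 in ESD3.

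Other genes had less H3.3 in iPSCs than in D0. Zfp143, an activator of small nuclear RNA genes, gave 175 in D0, 140 in D6T-, 80.3 in D9T-, then 41.9 and 15.8 in D12S+ and D16S+, and 74.2 and 59.1 in iPSCs and ESD3. Zfp536, a repressor of neuronal differentiation, gave 84.2 in D0, 141 in D6T-, 94.0 in D9T-, then 20.7 and 0 in D12S+ and D16S+, and 5.35 and 9.02 in the pluripotent iPSCs and ESD3. In both genes D16S+ was the lowest of these libraries. Zfp536 also gave 171 in MEF and 274 in D4, so that D0 and MEF were both above iPSCs and ESD3. Zfp507 gave 84.3 in D0, 5.83 in iPSCs and 0 in ESD3, and Zfp787 gave 155 in D0, 49.4 in iPSCs and 9.25 in ESD3.

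A contrast between D0 and iPSCs that all genes did not share was in the last exon. This exon held the linker motif in 58 of the 87 genes, so a peak over it is not always a peak over fingers. The last exon was taken from the longest coding transcript of each gene. Its median length was 2.18 kb in the 87 genes, 2.39 kb in Zfp genes elsewhere and 1.04 kb in all genes. An H3.3 peak lay over the last exon at 24 of 87 genes (27.6%) in D0 and 45 (51.7%) in iPSCs, whereas the share of all genes went from 29.1% to 23%. Both libraries had the peak at 20 genes, D0 alone at 4 (4.60%, against 13.6% of all genes) and iPSCs alone at 25 (28.7%, against 7.46% of all genes). Zfp genes elsewhere held about level, with 31.0% in D0 and 31.4% in iPSCs.

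The genes with a KRAB pattern contributed most of the additional last exons. An H3.3 peak lay over the last exon of 4 of 41 KRAB genes (9.76%) in D0 and 19 (46.3%) in iPSCs, and over 20 of 46 (43.5%) and 26 (56.5%) of the genes without the pattern. Of the 25 genes with the peak in iPSCs alone, 15 had the pattern and 10 did not, and the 4 with it in D0 alone were all without. In ESD3 the counts were 10 of 41 and 16 of 46 (16.3% of all genes), in MEF 3 and 14 (16.7%), and in D4 17 and 29 (40%). D4, a library of cells that are not pluripotent, thus had nearly as many KRAB genes with this peak as iPSCs, and it also had the largest share of tags in peaks. On the other chromosomes, 22 of 120 Zfp genes with the pattern had it in D0 and 30 in iPSCs.

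The contrast was again not held by strong peaks. With peaks of at least 4 times input, 18 of 87 last exons (20.7%) were bound in D0 and 10 (11.5%) in iPSCs, against 20.03% and 3.78% of all genes. KRAB genes went from 2 to 6 of 41 at this threshold and the others from 16 to 4 of 46. With ESD3 in place of iPSCs, the last exon share was 2.30 percentage points above D0 rather than 24.1. With only genes whose last exon was at least 90% unique in the genome, KRAB genes went from 4 to 12 of 29 and the others from 20 to 25 of 39.

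**Figure D3:**
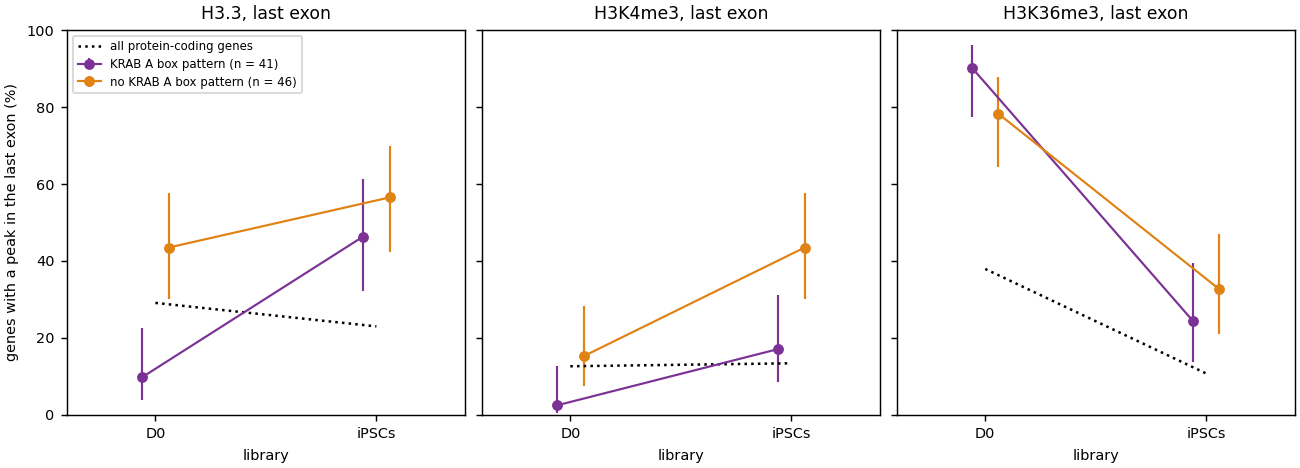
Percent of genes with a peak over the last exon (y axis) in D0 and iPSCs (x axis), with 1 panel a mark, for the 41 genes with a KRAB A pattern, the 46 without it (points, Wilson 95% intervals as bars) and all protein-coding genes (dotted). For H3.3 the KRAB genes were at 9.76% in D0 and 46.3% in iPSCs and the others at 43.5% and 56.5%, and for H3K36me3 both groups were lower in iPSCs.

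Single last exons followed several courses. In Zfp568, whose finger stretch is shown above, the score over the last exon was 6.31 in D0, 68.5 in D3, 73.1 in D6T-, 23.7 in D6T+, 37.8 in D9T-, 6.68 in D9T+, 37.3 in D12S+, 52.4 in D12S-, 16.9 in D16S+, 18.5 in D16S-, 67.7 in iPSCs, 22.4 in ESD3, 6.64 in MEF and 87.6 in D4. The unconverted fibroblasts of D0 and MEF were close to each other and to D9T+, and no last exon peak was called in cKit+ or cKit-. Zfp626 had no last exon peak in D0, D3, D6T+ or ESD3, and gave 13.9 in D6T-, 18.8 in D9T- and 13.5 in iPSCs. Zfp110, the neurotrophin receptor interacting factor, had none in D0 or D3 and gave 6.07 in D6T- and 6.49 in D9T-, with 13.8 in D12S+ and 25.8 in iPSCs. In Zfp473 a last exon peak was called only in iPSCs (23.6) and ESD3 (11.1) among the 16 libraries. Zfp84 had none in D0, MEF or ESD3, and gave 12.5 in D6T-, 8.87 in iPSCs and 39.5 in D4. Zfp606 had none in any of the 16.

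The sorted fractions were compared as pairs within each of the 4 sorting days. The share of the 87 genes bound in the gene region was 16.1 percentage points higher in the Thy-1 negative than in the Thy-1 positive cells on day 6 and 8.05 points higher on day 9. On day 12 the difference was -10.3 points in the SSEA-1 positive against the SSEA-1 negative cells, and on day 16 -14.9 points. Over all genes the differences were 7.56, 3.36, -13.2 and -13.3 points. The mean difference was -0.287 points (two-sided exact sign-flip permutation test, p = 1, with 16 of 16 sign assignments at least as far), and over all genes it was -3.90 points (exact permutation p = 0.5). With 4 pairs at least 2 of the 16 assignments are always as extreme, so this test cannot reach 0.05. The day 12 and day 16 SSEA-1 positive libraries had 6.93 and 4.88% of tags in peaks, and the part of this in the difference was not tested.

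In the transdifferentiation series, 58.6% of the 87 genes were bound in MEF (53.2% of all genes) and 88.5% in D4 (72.1%). A peak was found in both at 51 genes, in D4 and not MEF at 26 (29.9%, against 19.7% of all genes) and in MEF and not D4 at 0 (0.88%). Zfp genes elsewhere had 37.3% in D4 and not MEF. In D4 and not cKit+ there were 52 genes (59.8%, against 39.4%), and in D4 and not cKit- 60 (69.0%, against 41%), with 0 in the opposite direction in either case (0.514 and 0.777% of all genes). Tags in peaks were 7.64% in MEF, 37.2% in D4, 1.65% in cKit+ and 2.31% in cKit-, in the same order as the shares of genes except between the 2 cKit libraries. The part of enrichment in these shares was not tested, and Zfp568 had a peak in both cKit libraries.

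H3K4me3 was a constant feature of the promoters. It was called at the promoter of 75 of 87 genes (86.2%) in D0, D3, D6T-, D9T- and iPSCs alike, against 64, 62.5, 63.5, 62.5 and 62.2% of all genes. The share was 82.8% in D12S+ and 60.9% in D16S+, where all genes were at 60.3% and 43.5%. The 51 genes with the mark in all 7 libraries were 58.6% of the 87, against 41.8% of all genes and 62.4% of Zfp genes elsewhere. All 57 genes with a promoter CpG ratio of at least 0.5 had the mark in both D0 and iPSCs, against 96.8% of all genes with such a ratio. Of the 30 below it, 17 had the mark in both libraries (56.7%, against 17.7% of all genes below it). Zfp568, with 24 CpG in the 250 bases shown, gave a promoter score of 131 in D0 and 72.9 in iPSCs, and Zfp936, with none, had no H3K4me3 peak in any of the 7 libraries.

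The amount of H3K4me3 at these promoters was smaller in iPSCs at most genes. Its summed promoter score was lower in iPSCs than in D0 at 75 of 87 genes (86.2%, against 62.3% of all genes), higher at 1 (1.15%, against 4.04%) and 0 in both at 11 (12.6%, against 33.7%). Zfp genes elsewhere gave 80.5% lower, 4.53% higher and 15.0% at 0 in both. In Zfp36 it was 104 in D0, 88.0 in D3, 123 in D6T- and 107 in D9T-, then 37.4, 33.3 and 39.4 in D12S+, D16S+ and iPSCs. The 3 latest libraries were below the 4 earlier ones. In Zfp668 and Zfp646, which start head to head and share the peak, it was 195 in D0 and 106 in iPSCs. Scores were scaled to total tags, and 30.4% of tags lay in peaks in the D0 library against 12.7% in iPSCs. The part of this difference in the scores was not tested.

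H3K4me3 peaks also reached more last exons in iPSCs than in D0, in some genes as promoter peaks that extended into them. H3K4me3 was found over the last exon of 8 of 87 genes (9.20%) in D0 and 27 (31.0%) in iPSCs, against 12.6% and 13.4% of all genes. Of these, 21 (24.1%, against 4.82% of all genes) had it in iPSCs and not D0. Zfp553 had no such peak in D0 or D3 and a score of 20.7 in D6T-, 21.4 in D9T-, 43.9 in D12S+, then 23.7 in D16S+ and 119 in iPSCs. Zfp296 had none in D0 or D3 and 21.4 in D6T- and 4.29 in D9T-, with 8.46 in D12S+ and 30.4 in iPSCs. In both genes the peak in D6T- and in iPSCs was a single one that also covered the promoter. Its whole score in iPSCs was 373 in Zfp553 and 115 in Zfp296. H3.3 lay over 24 of these 27 last exons in iPSCs (88.9%, against 59.9% of all genes with H3K4me3 there), which is 53.3% of the 45 last exons with H3.3. The highest share in Zfp genes elsewhere was 16.7%, in iPSCs.

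**Figure D4:**
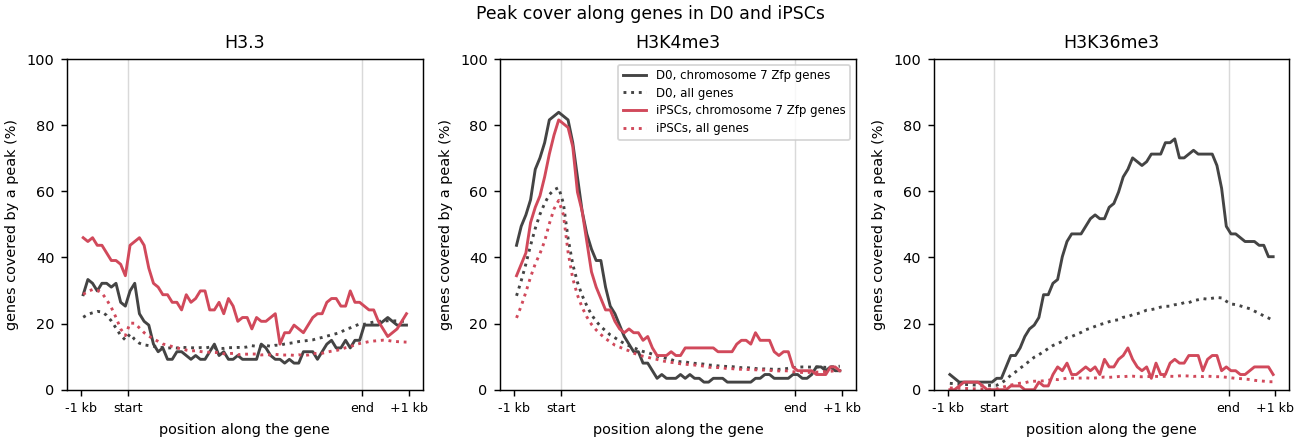
Percent of genes covered by a peak (y axis) from 1 kb before the start, through equal fractions of the gene, to 1 kb after its end (x axis), with 1 panel a mark, for the 87 Zfp genes (solid) and all genes (dotted) in D0 and iPSCs. In iPSCs the H3.3 line of the 87 genes lies above that of all genes throughout, and the H3K36me3 line of the 87 genes in D0 climbs towards the end of the gene.

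Coverage along the length of the gene, read from the same D0 and iPSC peaks, shows the shift in H3.3 without fixed windows. It is another view of those peaks and not a separate check. In D0, H3.3 covered 25.1% of the 87 genes over the first 10% of the gene, 9.39% in the middle and 14.0% over the last 10%, and all genes gave 14.6, 12.9 and 18.7%. In iPSCs the 87 genes gave 43.0, 21.6 and 26.7%, and all genes 18.5, 10.8 and 13.1%. H3K4me3 covered 3.83% of the 87 genes in the middle in D0 and 11.3% in iPSCs.

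In D0, H3K36me3 was more frequent over these genes than over all genes in each window. It lay over the 3' end of 77.0% of the 87 genes (36.4% of all genes), over the last exon of 83.9% (37.9%) and over the promoter of 9.20% (3.21%). The last exons of the 87 genes were longer, with a median of 2.18 kb against 1.04 kb in all genes, and the part of length in their share was not tested. At the 3' end H3K36me3 was called at 69.0% of the genes on day 3 (26.4% of all genes), 44.8% in D6T- (20.3%) and 78.2% in D9T- (37.9%). Later the shares were 5.75% in D12S+ (4.83%), 18.4% in D16S+ (5.21%) and again 18.4% in iPSCs (11.3%). The share of tags in peaks followed the same course, with 31.3, 14.1, 7.5 and 42.4% in D0, D3, D6T- and D9T- and 1.07, 1.99 and 2.88% in D12S+, D16S+ and iPSCs, and its part in the late values was not tested. Zfp genes elsewhere were above all genes at the last exon in 7 of 7 libraries, as the 87 genes were.

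Between D0 and iPSCs, an H3K36me3 peak lay over the last exon in both libraries at 25 genes and in D0 alone at 48 (55.2%, against 28.6% of all genes), with 0 in iPSCs alone (1.46% of all genes). All 7 libraries had it at 9 genes (10.3%, against 0.791% of all genes). Tags in peaks were 31.3% in the D0 library and 2.88% in iPSCs, and the part of this in the difference was not tested. In D0 the peak lay over 37 of the 41 genes with a KRAB A match (90.2%) and 36 of the 46 without (78.3%), and the difference was not tested. In the 14-gene cluster from Zfp84 to Zfp146, 14 last exons had the peak in D0 and 9 in iPSCs, and H3.3 lay over 5 of them in D0 and 10 in iPSCs.

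The gene with the highest H3K36me3 score in D0 was Zfp110. Its summed score was 1279 in D0, 614 in D3, 347 in D6T- and 1539 in D9T-, then 99.2, 233 and 131 in D12S+, D16S+ and iPSCs. Zfp568 gave 820, 572, 285, 1343.5, 15.6, 58.0 and 105 in the same order of libraries, and Zfp606 gave 789, 317, 154, 828, 51.9, 51.6 and 18.9. D0 and D9T- were the highest libraries for each of the 3 genes. These libraries also had the largest shares of tags in peaks (31.3 and 42.4%), and the part of this in the scores was not tested. Zfp606, with H3K36me3 in all 7 libraries, had an H3.3 peak only in D16S- (7.81) and D4 (5.88), both at the promoter. Zfp780b, with 3 CpG before its start, had H3K36me3 scores of 475 in D0 and 643 in D9T- but no H3K4me3 peak at its promoter and no H3.3 peak in any of the 16 libraries. Only 49.9% of its promoter and 46.2% of its last exon were unique in the genome, and the part of this in the missing peaks was not tested. Zfp536, in contrast, had an H3K36me3 peak only in D9T- (6.48), although its H3K4me3 score over the gene region, 565 in D0, was the highest of the 87 genes.

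H3.3 and H3K36me3 were not simply found together in the last exons. In D0, 19 of the 24 last exons with H3.3 also had H3K36me3 (79.2%, against 72.1% of all genes with H3.3 there). With or without H3.3, H3K36me3 lay over 83.9% of the last exons of the 87 genes and 37.9% of those of all genes. The 19 were 26.03% of the 73 with H3K36me3 (55.3% of all genes with it there). Of the 25 genes with last exon H3.3 in iPSCs and not D0, 20 had H3K36me3 there in D0 (80.0%, against 44.0% of all such genes). This share was near that of the 87 genes as a whole, 83.9%, and of such Zfp genes elsewhere, 86.0%. Of the 25, 6 had H3K36me3 there in iPSCs, and 13 had H3K4me3 there in iPSCs (52.0%, against 33.4% of all such genes).

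Whether repeated sequence could carry these peaks was read from the input tags that the peak caller lists for each peak, divided by the peak's length and by the median of all peaks of that library. Over 2097 H3.3 peaks in the 87 gene regions, the median of this ratio ran from 0.973 to 1.09 between libraries, against 0.991 to 1.01 for peaks in all genes, and 11 peaks (0.525%) exceeded 2, against 0.564% of peaks in all genes. For H3K4me3 the median ran from 1.09 to 1.39, above the 1.00 to 1.06 of peaks in all genes, and 1.97% of peaks exceeded 2 against 0.762%. Reads that matched more than 1 place had been removed before peaks were called, and stretches of 32 bases were unique over a median of 97.5% of the promoter windows, 95.5% of the 3' end windows and 99.2% of the last exons, with 18 last exons below 90%.

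**Figure D5:**
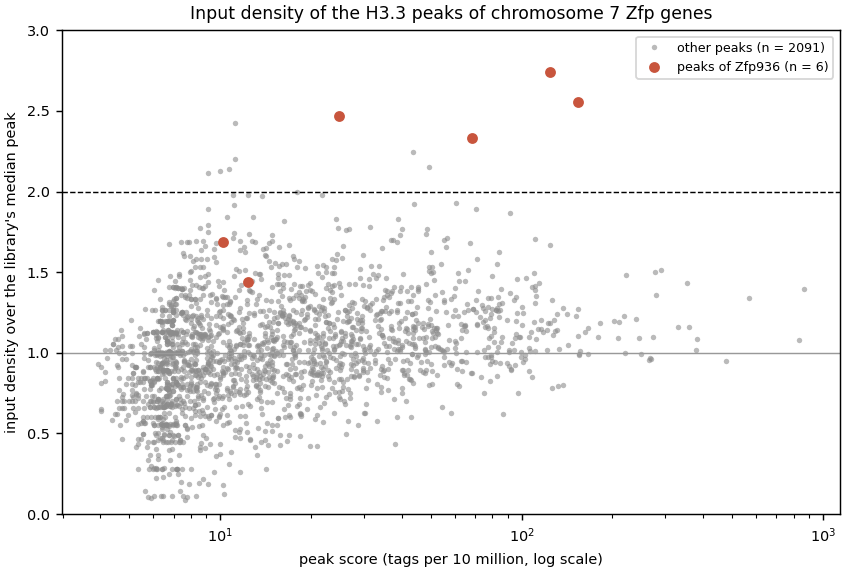
Input density over the median peak of the library (y axis) against peak score in tags per 10 M tags of the library (x axis, log scale) for the 2097 H3.3 peaks of the 87 genes. The peaks of Zfp936 are marked, and 4 of its 6 lie above 2, where 11 peaks lie in all.

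Zfp936 was the exception. It had H3.3 peaks in D12S+, D16S+, iPSCs and ESD3 only, with scores in the gene region of 22.6, 89.2, 118 and 99.0, and its peaks in the last 3 had input ratios of 2.33 and 2.47 in D16S+, of 2.74 in iPSCs and of 2.56 in ESD3. The iPSC peak spanned 5343 bases (chr7:50441783-50447126) at 2.34 times input. Only 61.0% of its promoter, 57.1% of its 3' end and 42.1% of its last exon were unique. The 2 peaks in D12S+ had ratios of 1.68 and 1.44. Input could be read only where a peak was called, and what part of the H3.3 at Zfp936 is input was not tested.

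The partners of the KRAB proteins and the chaperones of H3.3, a list of 10 genes with 11 annotation entries, were read beside the family. H3.3 lay in the gene region of 11 of 11 entries in D0 and in iPSCs, at the promoter of 10 in D0 and 7 in iPSCs, and over the last exon of 9 and 8. H3K36me3 lay over the last exon of 10 in D0 and 3 in iPSCs. Its libraries had 31.3% of tags in peaks in D0 and 2.88% in iPSCs, and the part of this was not tested. Trim28, the corepressor that KRAB boxes bind, gave an H3.3 score of 141 in D0, 145 in iPSCs and 106 in ESD3, with H3K36me3 at 165 in D0 and 10.9 in iPSCs. Setdb1, the methyltransferase that it recruits, gave 166, 110 and 37.7 for H3.3. Daxx and Atrx, which deposit H3.3 at repeats, gave 89.2 and 13.7 in D0 and 106 and 47.0 in iPSCs, and Hira gave 126 and 117. The scores come from mixed cell populations, in which fewer cells with a mark and less of it per cell cannot be told apart.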

How the data were processed

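Chromatin immunoprecipitation followed by sequencing (ChIP-Seq, Genome Analyzer IIx) gave 30 peak lists, 16 for H3.3 and 7 each for H3K4me3 and H3K36me3. Per the methods, the authors mapped reads to mm9 with STAR, dropped reads with more than 1 match, and called regions with HOMER against a matched input, with versions not given in the sources used here. Each deposited list holds, for every peak, a normalized tag count (signal, tags per 10 M tags of the library, here the score), the total and control tags, the fold over control (a ratio) and a p-value. Per the file headers, the p-value limit was 0.0001 and the fold limit differed between H3.3 and the other marks. Scores were not divided by length. In some headers the tags of the immunoprecipitated library, not of its input, were the ones scaled, so input density was used only relative to the median peak of the same library.

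From these lists, peaks were overlapped (at least 1 base) with GENCODE vM1 genes on mm9, in the gene region (1 kb flanks), in 2 kb windows at the start and end, and in the last exon of the longest coding transcript. Overlap counts were tested on simulated peaks. Fingers and KRAB A boxes were found by amino acid patterns in the translated GENCODE transcripts, and uniqueness as the share of 32-base stretches that occur once in mm9, which takes exact matches only. The region of 20 of the 87 genes overlaps another gene, and a peak there was counted for both. A gene was named where it had a 3' end peak in most reprogramming libraries (8 genes), where its summed score differed most between D0 and iPSCs (5 each way), where it had the highest H3K36me3 or H3K4me3 score in D0 (5 each), where its role was known, or where it stood in a listed count. Zfp420, Zfp553, Zfp626, Zfp819 and Zfp936 were given further values after these were seen. The genes, gene lists and windows were chosen with earlier results of these data known. Groups were taken from the labels, 1 library each, so no test was run except the exact sign-flip over sorting days. The 16 inputs entered through the control tags in the peak lists only. Python 3.11.15, numpy 2.4.6, scipy 1.17.1, numba 0.67.0 and matplotlib 3.10.9 were used.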

Additional observations from a re-analysis of the deposited data

How the results depend on the processing

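Of 54 alternatives to the values reported, 40 were counted as the same, 9 moved further and 5 reversed. A median share was allowed its Wilson half-width, and a difference between shares 10.3 percentage points. Counts of libraries were allowed a factor of 1.5, and input density its standard deviation between libraries. For the route difference only the sign was compared. The last exon comparison and its alternatives, and the use of MEF with ESD3, were added after the data were seen. The median share of the 87 genes with an H3.3 peak was 67.8% as reported, 57.5% with no flank, 47.1% with equal numbers of top-scoring peaks and 47.1% with peaks of at least 4 times input. It was above all genes in 12 to 14 libraries under each of these. The H3.3 difference between promoter and 3' end, 16.1 points, was 2.87 points with peaks of at least 4 times input, and the H3K36me3 difference, -42.5 points, was -27.6 points with equal numbers of peaks.

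The gene region difference between iPSCs and D0 was 17.2 points as reported, 27.6 with MEF in place of D0, 8.05 with MEF and ESD3, -2.30 with ESD3 in place of iPSCs and -27.6 with peaks of at least 4 times input (all genes -9.72 and -23.7 in the latter 2). In the last exon it was 24.1 points as reported, 32.2 with MEF, 23.0 without peaks of high input, 19.1 with unique last exons, 14.9 with equal numbers of peaks, 10.3 with MEF and ESD3, 2.30 with ESD3 and -9.20 with peaks of at least 4 times input (all genes -12.8 and -16.3 in the latter 2). The cause of these moves was not tested. The mean route difference, -0.287 points, ran from -5.75 to 4.60 when each sorting day was left out, and it was above 0 without day 12 (3.07) and without day 16 (4.60). The median input density, 1.01, was 1.09 with the longest peak of each gene. No paired analysis was possible because each group has 1 library and the labels give no shared replicate numbers, apart from the sorting days, which form the pairs of the sign-flip test. Weakly enriched libraries (cKit+, cKit-, D12S+ and D16S+) limit what a missing peak can show.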
